A study of Mus musculus with 24 samples.

Results

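The genes described here are 9 targets of the transcription factor p53 (Cdkn1a, Ccng1, Mdm2, Bax, Bbc3, Pmaip1, Phlda3, Trp53inp1 and Eda2r), taken as the rows of the count table whose Entrez identifiers carry these symbols. All 9 were among the 24454 genes counted, and all 9 were among the 16317 that had enough counts for testing. They were measured in organ of Corti (OC) explants, the strips of cochlea that hold the sensory hair cells, from C57BL/6N mouse pups of both sexes at the age of 5 days. After 24 h of preculture in medium with penicillin, culture went on for another 6 or 24 h. At each time point 1 arm received no drug (CTRL), 1 arm gentamicin at 50 μM (GM), 1 arm pioglitazone at 10 μM (PIO) and 1 arm the combination (PIO+GM). Each of these 8 groups comprised 3 libraries, 24 in all, and each library was made from 6 pooled OCs, so the values are averages over pups and over all cell types of the explant. Gentamicin is an aminoglycoside antibiotic that kills hair cells, and pioglitazone activates the nuclear receptor PPAR-γ. The design asks whether either drug shifts the p53 targets in the explant, and whether their levels differ between the 2 time points.

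p53, encoded by Trp53, is held at low protein levels by the ubiquitin ligase MDM2 and accumulates when DNA is damaged or a cell is otherwise stressed. It then binds pairs of decamer half-sites near its targets and raises the transcription of genes that stop the cell cycle, start apoptosis or feed back on p53 itself. p53 is mainly controlled after translation, so the mRNA levels of its targets, rather than that of Trp53, are the usual transcript readout of its activity, and p53 has been linked to the death of hair cells exposed to aminoglycosides.

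The start regions of 4 members are shown because they hold the decamer half-site of p53, printed in capitals. They cover 250 bases before and 50 after an annotated start, come from RefSeq on build GRCm38.p6, and are written 5′ to 3′ on the strand of the gene.
Cdkn1a (chr17:29090729-29091028, plus strand): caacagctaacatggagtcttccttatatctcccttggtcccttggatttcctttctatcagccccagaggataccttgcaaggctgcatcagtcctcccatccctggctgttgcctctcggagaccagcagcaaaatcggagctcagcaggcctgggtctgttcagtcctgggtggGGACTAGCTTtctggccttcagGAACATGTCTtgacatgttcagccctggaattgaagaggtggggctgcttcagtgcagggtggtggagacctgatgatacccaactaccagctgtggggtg
Bax (chr7:45466849-45467148, minus strand): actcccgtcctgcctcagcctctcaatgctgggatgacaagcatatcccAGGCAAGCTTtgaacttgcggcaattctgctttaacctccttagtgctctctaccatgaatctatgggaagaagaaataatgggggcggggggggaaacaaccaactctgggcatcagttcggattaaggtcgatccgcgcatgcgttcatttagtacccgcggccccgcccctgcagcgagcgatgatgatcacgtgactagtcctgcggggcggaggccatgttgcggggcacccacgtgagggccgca
Mdm2 (chr10:117710709-117711008, minus strand): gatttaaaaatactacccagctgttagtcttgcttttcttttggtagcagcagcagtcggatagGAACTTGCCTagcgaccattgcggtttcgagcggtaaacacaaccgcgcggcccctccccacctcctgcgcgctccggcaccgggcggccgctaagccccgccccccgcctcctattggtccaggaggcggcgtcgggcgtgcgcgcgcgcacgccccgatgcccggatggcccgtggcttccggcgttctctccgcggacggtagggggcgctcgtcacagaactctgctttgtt
Ccng1 (chr11:40755237-40755536, minus strand): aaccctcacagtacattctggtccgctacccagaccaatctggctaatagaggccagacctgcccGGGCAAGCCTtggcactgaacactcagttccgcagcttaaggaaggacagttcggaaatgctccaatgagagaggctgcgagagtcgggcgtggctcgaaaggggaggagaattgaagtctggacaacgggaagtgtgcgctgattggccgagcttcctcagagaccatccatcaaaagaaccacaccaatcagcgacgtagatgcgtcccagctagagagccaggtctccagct
The search used the p53 decamer half-site, whose pattern reads alike on both strands. At least 1 half-site lay in 8.36% of the 32851 RefSeq start regions of the same length (2745 regions). Cdkn1a was the member with a pair, at positions −73 and −51 from the start, and such pairs at most 13 bases apart occurred in 0.0731% of all regions (24 regions). The half-sites of Bax, Mdm2 and Ccng1 began at −201, −186 and −185, respectively. These letters were not found in the window of Phlda3, in that of Eda2r, in 3 windows of Bbc3, or in that of a second, downstream start of Cdkn1a, and no window of Pmaip1 or Trp53inp1 was used. The Phlda3 window ends in gaacatgt, which follows the pattern up to its edge, so a half-site across that edge would have been missed. A match is a match of letters only, and binding of p53 was not measured.

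On build GRCm38, Cdkn1a lies at chr17:29090979-29100722, Ccng1 at chr11:40748552-40755309, Mdm2 at chr10:117688875-117710758, Bax at chr7:45461695-45466903 and Bbc3 at chr7:16308398-16318334. Phlda3 lies at chr1:135766085-135769134, Trp53inp1 at chr4:11156441-11174379 and Eda2r at chrX:97333837-97377234. Reads were counted over the exons of a gene. Of the windows of 76 bases, the read length, in the Cdkn1a transcript, 9.33% also lie in the antisense gene AC167363.2, and 14.9% of those of Bax lie in Gm45808 on the same strand, so the counts of these 2 genes can hold some reads of the neighbour. No window of the other 7 was shared with another annotated transcript.

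Library totals ranged from 7211357 to 15548856 counts. Defining markers of hair cells (Myo7a, 292 to 1437 counts, and Pou4f3, 29 to 317) and supporting cells (Sox2, 261 to 1243, and Prox1, 106 to 307) were counted in every library, as were those of macrophages (Cd68, 54 to 258), Schwann cells (Sox10, 545 to 2513), neurons (Nefl, 90 to 1025) and mesenchyme (Col1a2, 5184 to 35104). In 3 libraries, PIO at 6 h replicate 2 and PIO+GM at 6 h replicates 2 and 3, gene levels fell with the GC content of the transcript (Spearman across genes −0.689 to −0.496, against −0.094 to 0.394 in the other 21). PIO+GM at 6 h replicate 3 was also the smallest library. Values without these 3 libraries are given beside the results for which they were computed.

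The members differed widely in level per transcript length. The mean over the 24 libraries, as counts scaled to library size and transcript length (RPKM), was 40.2 for Bax, 38.1 for Cdkn1a, 30.5 for Ccng1, 26.7 for Mdm2, 20.2 for Trp53inp1 and 12.2 for Phlda3. It was 1.86 for Bbc3, 1.14 for Eda2r and 0.364 for Pmaip1. Over the libraries, neighbours in this order overlapped (Bax ranged from 32.0 to 59.7 RPKM and Cdkn1a from 16.2 to 79.7), except that the lowest value of Phlda3, 6.48 RPKM, lay above the highest of Bbc3, 3.52. Pmaip1 stood on 3 to 28 counts per library. Levels below are CPM, counts scaled to library size with TMM factors, which compare one gene between libraries and not one gene with another. At these depths 3 counts amount to 0.193 to 0.416 CPM.

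**Figure D1:**
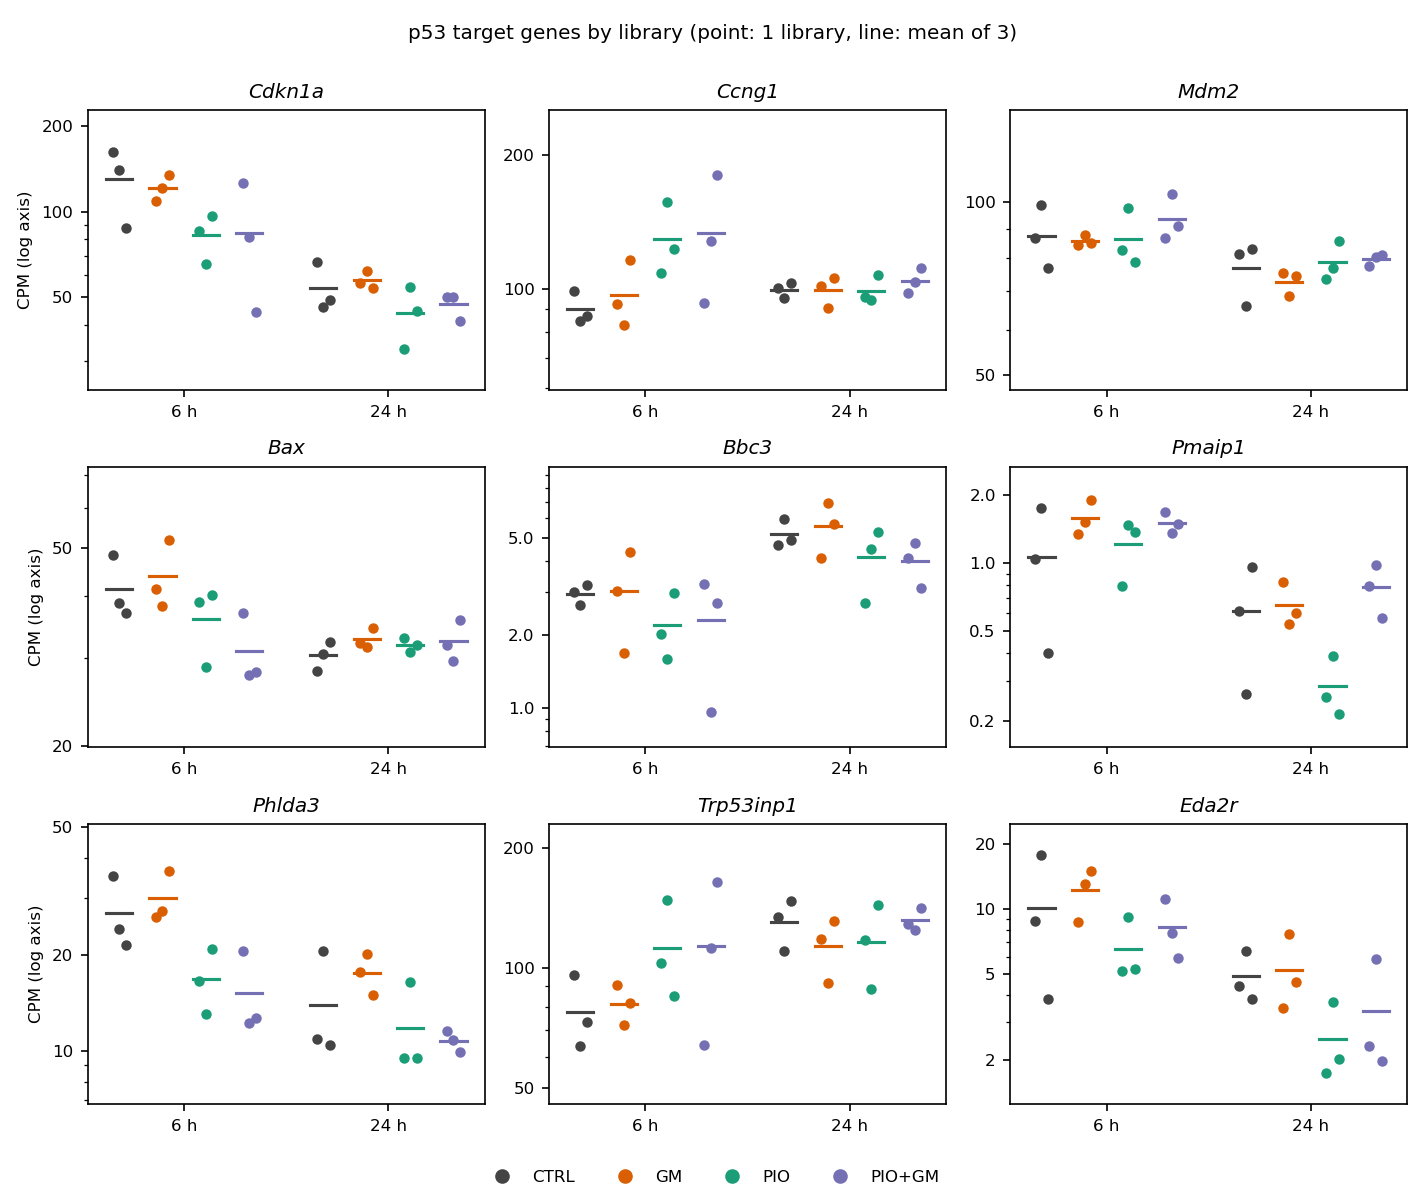
CPM on a log axis of the 9 p53 target genes in each of the 24 libraries, by time point and treatment (points, single libraries; lines, means of 3). Cdkn1a lies between 44.5 and 162 CPM at 6 h and between 33.0 and 66.5 at 24 h.

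Gentamicin left none of the 9 genes past the threshold of the test. With edgeR's quasi-likelihood test and Benjamini-Hochberg adjustment over all tested genes, 0 of 9 passed at an adjusted p under 0.05 in GM vs CTRL at 6 h, where 0% of all genes did, and 0 of 9 at 24 h, where 0.0123% did. In PIO+GM vs PIO it was again 0 of 9 at 6 h (all genes 0%) and 0 of 9 at 24 h (all genes 0.0735%). At an unadjusted p under 0.05 the counts were 0, 0, 0 and 1, and DESeq2 and edgeR's likelihood ratio test also called 0 in each of the 4. The median log2 fold change of the members was 0.08 at 6 h and 0.10 at 24 h in GM vs CTRL, beside −0.001 and −0.002 for all genes, and 0.03 and 0.07 in PIO+GM vs PIO, beside 0.002 and −0.002. These medians changed sign with single libraries left out in GM vs CTRL at 6 h (−0.02 without GM replicate 3 to 0.22 without GM replicate 2) and at 24 h (−0.01 without CTRL replicate 2 to 0.11), and in PIO+GM vs PIO at 6 h (−0.04 without PIO+GM replicate 3 to 0.20 without PIO replicate 2). The last comparison rests on all 3 libraries with a GC trend, and without them, with 1 PIO+GM library left at 6 h, 0 of 9 genes passed, with a median of 0.13. Across genes, its log2 fold change fell with GC content (Spearman −0.479), as did that of PIO+GM vs PIO at 24 h (−0.348), while in GM vs CTRL it rose with GC (0.129 at 6 h and 0.268 at 24 h). Among all genes, an unadjusted p under 0.05 was reached by 243 and 272 in GM vs CTRL at 6 and 24 h, and by 499 and 423 in PIO+GM vs PIO.

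Cdkn1a, which encodes the inhibitor p21 of cyclin-dependent kinases, was measured at 162, 140.4 and 87.6 CPM in CTRL and at 109, 121 and 135 CPM in GM after 6 h. The GM values lay inside the range of CTRL. The log2 fold change was −0.10 ± 0.28 (adjusted p = 1), with a 95% interval from −0.68 to 0.48, so differences of over 1.39-fold up or below 0.625-fold lie outside that interval. After 24 h it stood at 66.5, 46.4 and 49.0 CPM in CTRL and 56.1, 62.1 and 53.8 in GM. The groups overlapped again, with a log2 fold change of 0.09 ± 0.28 (adjusted p = 1) and an interval from −0.49 to 0.67. Mdm2, the ligase that closes the feedback loop on p53, had the narrowest intervals of the 9: 86.5, 99.1 and 76.8 CPM in CTRL and 84.1, 87.8 and 84.9 in GM at 6 h gave a log2 difference between −0.27 and 0.21. At 24 h, 81.4, 65.9 and 83.0 CPM in CTRL and 75.3, 68.6 and 74.4 in GM gave one between −0.32 and 0.16. Ccng1, which encodes cyclin G1, a partner of a phosphatase that acts on MDM2, was at 98.7, 84.7 and 86.9 CPM in CTRL and 92.6, 82.8 and 116 in GM at 6 h. Its interval ran from −0.26 to 0.48 at 6 h and from −0.38 to 0.37 at 24 h.

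The 3 apoptosis genes of the Bcl-2 family were likewise without a call. Bax, the effector that permeabilizes mitochondria, was at 48.3, 38.7 and 37.0 CPM in CTRL and 41.3, 38.2 and 51.8 in GM at 6 h, and the groups overlapped (log2 fold change 0.08 ± 0.15, adjusted p = 1, interval −0.23 to 0.40). Bbc3, which encodes the BH3-only activator PUMA, was at 2.98, 2.65 and 3.19 CPM in CTRL and 3.03, 1.69 and 4.35 in GM at 6 h, and at 4.66, 5.95 and 4.89 and 4.13, 6.96 and 5.67 at 24 h. GM spread to both sides of CTRL at both times. Pmaip1, which encodes the BH3-only protein NOXA, was at 1.05, 1.76 and 0.399 CPM in CTRL and 1.35, 1.52 and 1.91 in GM at 6 h, and its interval, −0.30 to 1.47 on the log2 scale, reached up to 2.76-fold. In PIO+GM vs PIO at 24 h, Pmaip1 was the member with an unadjusted p under 0.05: 0.794, 0.985 and 0.573 CPM in PIO+GM against 0.257, 0.390 and 0.215 in PIO, from 7 to 13 and 3 to 6 counts. All 3 PIO+GM libraries were above all 3 PIO libraries, with a log2 difference of 1.42 ± 0.51 (adjusted p = 1) by edgeR.

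Of the remaining members, Phlda3 encodes a repressor of the kinase AKT, Trp53inp1 a nuclear stress protein that promotes autophagy and p53 phosphorylation, and Eda2r a receptor of the tumour necrosis factor family. In GM vs CTRL at 6 h their log2 fold changes were 0.16 ± 0.28 (adjusted p = 1) for Phlda3, 0.07 ± 0.26 (adjusted p = 1) for Trp53inp1 and 0.29 ± 0.47 (adjusted p = 1) for Eda2r. At 24 h they were 0.33 ± 0.28 (adjusted p = 1), −0.20 ± 0.26 (adjusted p = 1) and 0.10 ± 0.49 (adjusted p = 1), respectively. None of the 9 genes had GM libraries that all lay on one side of the CTRL libraries, at either time. The share of all genes with such a separation was not computed, so this does not set the 9 apart from other genes. Since these are whole explants, the hair cells are averaged with all other cells, and fewer cells of a type cannot be told apart from less RNA per cell. Marker medians in GM vs CTRL at 6 and 24 h were −0.05 and −0.28 for hair cells and −0.195 and −0.23 for supporting cells. They were 0.13 and 0.29 for macrophages, 0.28 and 0.12 for Schwann cells, 0.37 and −0.08 for neurons, and −0.03 and 0.06 for mesenchyme. None of these markers was called, and their part was not tested.

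**Figure D2:**
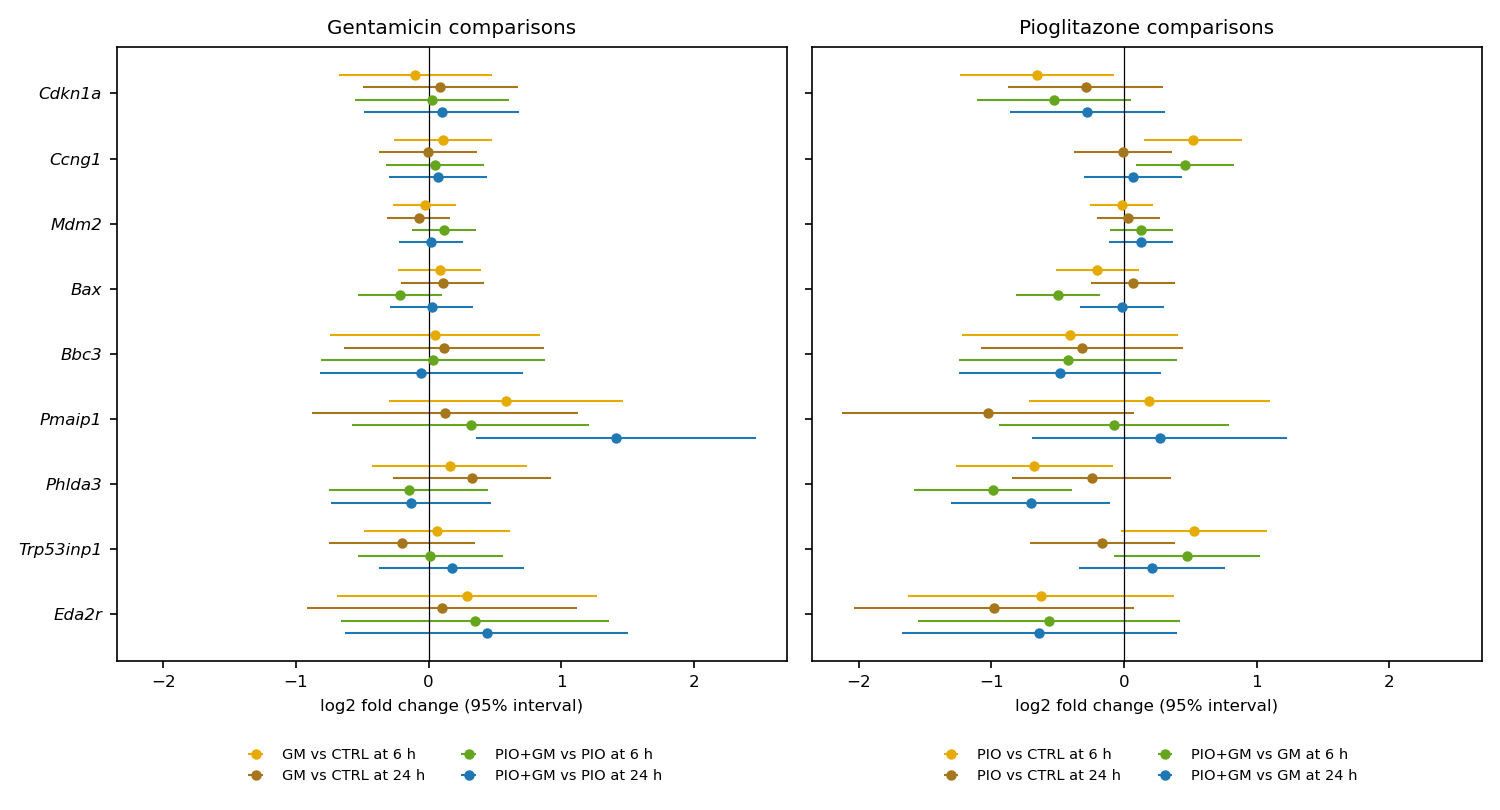
log2 fold changes of the 9 genes with their 95% intervals in the 4 gentamicin comparisons (left) and the 4 pioglitazone comparisons (right), 3 against 3 libraries each. None passed the threshold after adjustment. The intervals of Mdm2 are the narrowest and those of Pmaip1 and Eda2r the widest.

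Pioglitazone likewise gave 0 calls among the 9 genes. In PIO vs CTRL, 0 of 9 passed at 6 h (all genes 0.337%) and 0 of 9 at 24 h (all genes 0.153%), with 3 and 0 at an unadjusted p under 0.05, which 2479 and 1621 of all 16317 genes reached. In PIO+GM vs GM, 0 of 9 passed at 6 h (all genes 1.32%) and 0 of 9 at 24 h (all genes 0.11%), with 3 and 1 at an unadjusted p under 0.05, which 4087 and 1219 of all genes reached. DESeq2 called 2 of 9 in PIO+GM vs GM at 6 h, Bax and Phlda3, among 1330 of all genes, the likelihood ratio test called Phlda3 among 670, and both called 0 in the other 3 comparisons. The median log2 fold change of the members was −0.20 and −0.42 in the 2 comparisons at 6 h, beside 0.002 and −0.02 for all genes, and −0.24 and −0.01 at 24 h, beside −0.01 and 0. With single libraries left out, the median at 6 h ran from −0.29 to 0.05 (without CTRL replicate 2) in PIO vs CTRL and from −0.66 (without PIO+GM replicate 1) to −0.04 (without PIO+GM replicate 2) in PIO+GM vs GM, and at 24 h from −0.38 to −0.11 (without PIO replicate 1) and from −0.09 to 0.05 (without PIO+GM replicate 2).

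At 6 h Phlda3 was at 26.2, 27.4 and 36.6 CPM in GM and at 20.5, 12.2 and 12.7 in PIO+GM, with no overlap (log2 fold change −0.99 ± 0.29, adjusted p = 0.0707). In PIO vs CTRL it stood at 16.6, 13.0 and 20.8 against 35.3, 24.0 and 21.5 CPM, again without overlap (log2 fold change −0.68 ± 0.28, adjusted p = 0.271). At 24 h, the PIO+GM libraries (11.5, 10.8 and 9.90 CPM) were also below the GM libraries (17.6, 20.1 and 14.9 CPM), at −0.70 ± 0.29 (adjusted p = 0.543). Phlda3 was thus the member with the lowest adjusted p in a drug comparison, and edgeR's quasi-likelihood test did not call it. Bax was at 36.9, 27.8 and 28.1 CPM in PIO+GM at 6 h, below all GM libraries (41.3, 38.2 and 51.8 CPM), at −0.50 ± 0.15 (adjusted p = 0.0774). Its difference in PIO vs CTRL at 6 h was smaller, −0.20 ± 0.15 (adjusted p = 0.551), and the groups overlapped. Cdkn1a was at 85.5, 65.7 and 96.3 CPM in PIO and 126, 81.2 and 44.5 in PIO+GM at 6 h, with log2 fold changes of −0.66 ± 0.28 (adjusted p = 0.275) against CTRL and −0.53 ± 0.28 (adjusted p = 0.238) against GM. Ccng1 went the other way, with 108, 156 and 123 CPM in PIO, all above CTRL (0.52 ± 0.18, adjusted p = 0.185), and 93.1, 128 and 179.8 in PIO+GM, which overlapped with GM (0.46 ± 0.18, adjusted p = 0.132). At 24 h, groups without overlap were also seen for Eda2r in PIO vs CTRL (lower in PIO, −0.98 ± 0.51, adjusted p = 0.544) and for Cdkn1a (lower) and Mdm2 (higher) in PIO+GM vs GM, at −0.28 ± 0.28 (adjusted p = 0.914) and 0.13 ± 0.11 (adjusted p = 0.897). How many of all genes had groups without overlap was not computed. These separations can therefore not be read as particular to the members. GM vs CTRL and PIO vs CTRL share the CTRL libraries, and the comparisons of PIO+GM share the PIO+GM libraries, so their values are not independent.

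In these 2 comparisons at 6 h too, gene changes went with the GC content of the transcript. Across the 15389 tested genes with a known GC content (94.3%), the log2 fold change at 6 h fell with GC, with a Spearman coefficient of −0.377 in PIO vs CTRL and −0.628 in PIO+GM vs GM. In the latter, the median of genes with up to 45% GC was 0.32 and that of genes over 55% was −0.41. Of the members in PIO+GM vs GM, Trp53inp1 (38.8% GC) and Ccng1 (40.8%) stood at 0.48 and 0.46, Mdm2 (46.3%) at 0.13, and Cdkn1a (54.4%), Bax (59.2%), Phlda3 (62.6%) and Bbc3 (65.2%) between −0.99 and −0.42. Eda2r (40.9%) at −0.56 and Pmaip1 (42.1%) at −0.07 lay below the median of genes with up to 45% GC. In PIO vs CTRL, Trp53inp1 stood at 0.53, Ccng1 at 0.52, Pmaip1 at 0.19 and Mdm2 at −0.02, while Bax was at −0.20, Bbc3 at −0.41, Eda2r at −0.63, Cdkn1a at −0.66 and Phlda3 at −0.68. When the GC trend of each library was removed, the difference in PIO+GM vs GM at 6 h was −0.01 ± 0.13 (adjusted p = 0.99) for Bax, −0.43 ± 0.19 (adjusted p = 0.271) for Phlda3 and 0.09 ± 0.13 (adjusted p = 0.796) for Ccng1. Without the 3 libraries, which leaves 1 PIO+GM library at 6 h, assumed to vary like the other groups, it was −0.25 ± 0.17 (adjusted p = 0.862) for Bax, −0.56 ± 0.39 (adjusted p = 0.865) for Phlda3, and the sign turned for Ccng1, to −0.07 ± 0.16 (adjusted p = 0.969), for Cdkn1a, to 0.05 ± 0.29 (adjusted p = 0.988), and for Trp53inp1, to −0.35 ± 0.27 (adjusted p = 0.874). In PIO vs CTRL at 6 h, without PIO replicate 2, it was −0.52 ± 0.30 (adjusted p = 0.423) for Phlda3, −0.52 ± 0.23 (adjusted p = 0.279) for Cdkn1a and 0.36 ± 0.12 (adjusted p = 0.149) for Ccng1. Leaving out PIO+GM at 6 h replicate 1, the library of that group without the trend, moved the values the other way. Then 5 of the 9 genes passed the threshold, as did 4053 of the 16613 genes tested, with Phlda3 at −1.28 ± 0.32 (adjusted p = 0.0113) and Ccng1 at 0.65 ± 0.16 (adjusted p = 0.0107). All 6 lists of cell type markers also had medians below 0 in PIO vs CTRL and PIO+GM vs GM at 6 h. These were −0.63 and −0.23 for neurons, −0.53 and −0.32 for Schwann cells, −0.48 and −0.44 for mesenchyme, −0.29 and −0.24 for hair cells, −0.19 and −0.23 for supporting cells, and −0.07 and −0.25 for macrophages. Of their genes, 1 of 9 mesenchyme markers was called lower in each comparison and no other was called, and their part in these differences was not tested.

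**Figure D3:**
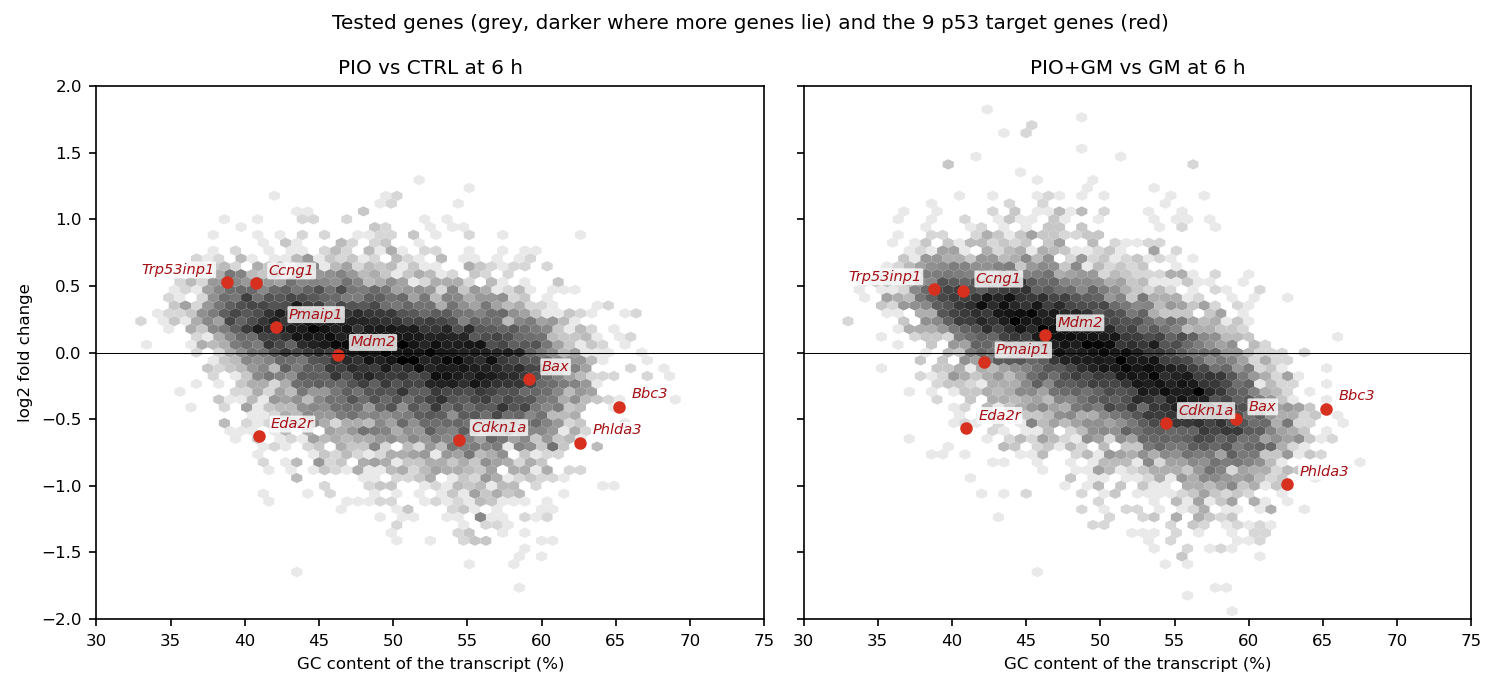
log2 fold change at 6 h against GC content of the transcript, for PIO vs CTRL (left) and PIO+GM vs GM (right). Grey hexagons hold the 15389 tested genes with a known GC content, of which 22 and 29 lie outside the axes, and red points are the 9 p53 target genes. The cloud slopes downward with GC, more steeply on the right, and Trp53inp1 and Ccng1 sit at its upper left end and Phlda3 and Bbc3 at its lower right.

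No member's response to 1 drug was shown to depend on the other drug or on time. For the GM x PIO interaction, 0 of 9 genes passed at 6 h (all genes 0%) and 0 of 9 at 24 h (all genes 0%), and for GM x time and PIO x time 0 of 9 passed as well (all genes 0% and 0%). The unadjusted counts were 0, 0, 0 and 1, the latter being Ccng1 at −0.53 ± 0.25 (adjusted p = 0.898), and DESeq2 and the likelihood ratio test called 0 of the 9 in all 4. In GM x PIO at 6 h and PIO x time, 0 of 9 passed without the 3 libraries with a GC trend as well. Among all genes, 293, 197, 125 and 714 had an unadjusted p under 0.05, and both other tools called 1 gene in PIO x time and 0 elsewhere. For Cdkn1a the interaction of GM and PIO was 0.13 ± 0.39 (adjusted p = 1) at 6 h, with an interval from −0.69 to 0.95.

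More genes passed the threshold between time points than between treatments, and Cdkn1a was lower at 24 h than at 6 h in all 4 treatments. In CTRL, 4 of 9 genes passed the threshold (all genes 28%): Cdkn1a, Phlda3 and Bax fell, which is 3 of 9 where 13.2% of all genes fell, and Trp53inp1 rose, 1 of 9 where 14.8% rose. In GM, 3 of 9 passed (all genes 24.2%), all lower (all genes 11.7% lower and 12.5% higher): Cdkn1a, Pmaip1 and Bax. In PIO, 3 of 9 passed (all genes 29%), again all lower (all genes 15.8% lower and 13.2% higher): Pmaip1, Cdkn1a and Eda2r. In PIO+GM, 2 of 9 passed (all genes 34.6%), both lower (all genes 17% lower and 17.6% higher): Cdkn1a and Eda2r. Leaving out single libraries moved the count of called members in every treatment. The median log2 fold change of the 9 genes was −0.44, −0.42, −0.38 and −0.36 in CTRL, GM, PIO and PIO+GM, beside 0.03, 0.02, 0.01 and 0.01 for all genes tested. With single libraries left out it ran from −0.52 to −0.27 (without CTRL at 6 h replicate 2) in CTRL, from −0.51 to −0.28 (without GM at 6 h replicate 3) in GM, from −0.49 to −0.31 in PIO and from −0.40 to −0.25 in PIO+GM, and without the 3 libraries with a GC trend it was −0.31 in PIO and −0.18 in PIO+GM. Across all genes the change between 24 and 6 h rose with GC content in PIO (Spearman 0.315) and PIO+GM (0.357), against 0.038 in CTRL and 0.073 in GM.

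**Figure D4:**
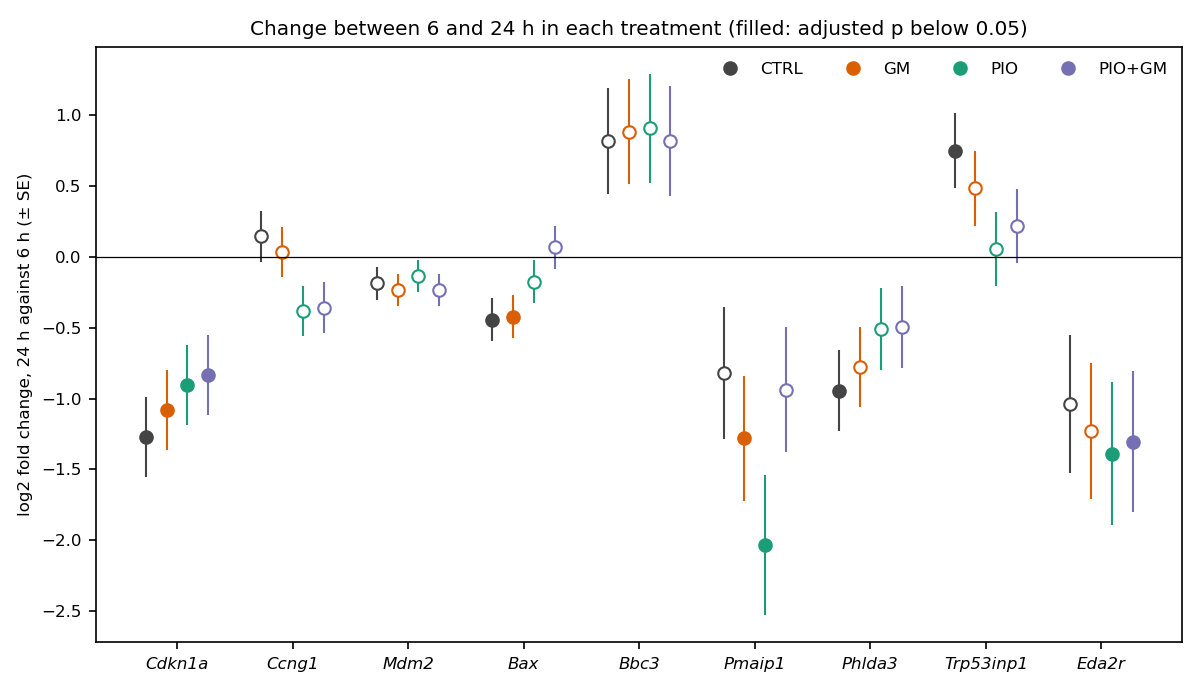
log2 fold change between 24 and 6 h (± SE) of the 9 genes in CTRL, GM, PIO and PIO+GM, 3 against 3 libraries each (filled points, adjusted p under 0.05). Cdkn1a is filled in all 4 treatments, between −1.27 and −0.83, while Bbc3 lies above 0 in all 4 without passing the threshold.

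Cdkn1a stood at 162, 140.4 and 87.6 CPM in CTRL at 6 h and at 66.5, 46.4 and 49.0 at 24 h, and fell to 0.414 of its level (log2 fold change −1.27 ± 0.28, adjusted p = 0.00253). In GM it went from 109, 121 and 135 to 56.1, 62.1 and 53.8 CPM, a log2 change of −1.08 ± 0.28 (adjusted p = 0.00856). In PIO it went from 85.5, 65.7 and 96.3 to 33.0, 54.6 and 44.8 CPM (−0.90 ± 0.28, adjusted p = 0.0219). The time points did not overlap in any of these 3 treatments. In PIO+GM the 6 h libraries were spread over 126, 81.2 and 44.5 CPM, the lowest of them inside the range at 24 h (50.2, 50.1 and 41.5 CPM), and the change was −0.83 ± 0.28 (adjusted p = 0.0276). The falls in CTRL and GM passed the threshold without any single library (adjusted p 0.00118 to 0.0161 and 0.0162 to 0.0353). That in PIO missed it without PIO at 6 h replicate 1 or 3 or PIO at 24 h replicate 1 or 3 (adjusted p 0.0516 to 0.103), and that in PIO+GM without any single library but PIO+GM at 6 h replicate 3 (0.0573 to 0.239), with a log2 change of −0.41 without replicate 1 at 6 h. Without the 3 libraries with a GC trend, the fall was −1.04 ± 0.23 (adjusted p = 0.00459) in PIO and −1.41 ± 0.27 (adjusted p = 0.00154) in PIO+GM.

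Phlda3 went from 35.3, 24.0 and 21.5 CPM at 6 h to 10.9, 20.5 and 10.4 at 24 h in CTRL, without overlap (−0.94 ± 0.28, adjusted p = 0.0184), but the call was lost without CTRL at 6 h replicate 1 or CTRL at 24 h replicate 1 or 3 (adjusted p 0.0862 to 0.108). In GM it went from 26.2, 27.4 and 36.6 to 17.6, 20.1 and 14.9 CPM, also without overlap, and just missed the threshold (−0.78 ± 0.28, adjusted p = 0.0507). The differences in PIO and PIO+GM, −0.51 ± 0.29 (adjusted p = 0.185) and −0.50 ± 0.29 (adjusted p = 0.189), started from lower values at 6 h, and were −0.66 ± 0.30 (adjusted p = 0.131) and −0.93 ± 0.37 (adjusted p = 0.0765) without the 3 libraries with a GC trend. After removal of the GC trend, Phlda3 passed the threshold in each of the 4 treatments, at −1.08 in CTRL, −0.94 in GM, −0.98 in PIO and −1.04 in PIO+GM (adjusted p 0.000265 to 0.000975).

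Bax went from 48.3, 38.7 and 37.0 to 28.3, 30.6 and 32.3 CPM in CTRL (−0.44 ± 0.15, adjusted p = 0.0339) and from 41.3, 38.2 and 51.8 to 32.1, 31.6 and 34.4 in GM (−0.42 ± 0.15, adjusted p = 0.0468), with no overlap in either. Both were small and close to the threshold: the first was lost without any single library but CTRL at 6 h replicate 3 (adjusted p 0.0569 to 0.18 where lost), and the second without any of the 6 (0.0506 to 0.221). In PIO (38.9, 28.8 and 40.2 to 33.0, 30.8 and 31.8 CPM) and PIO+GM (36.9, 27.8 and 28.1 to 31.8, 29.5 and 35.8 CPM) the time points overlapped, with log2 changes of −0.18 ± 0.15 (adjusted p = 0.398) and 0.07 ± 0.15 (adjusted p = 0.762). They were, without the 3 libraries with a GC trend, −0.31 ± 0.13 (adjusted p = 0.112) and −0.18 ± 0.17 (adjusted p = 0.452). Once the GC trend was removed, Bax passed the threshold in all 4, with changes between −0.53 and −0.40 (adjusted p 0.00445 to 0.0247).

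Pmaip1 had the largest fold of the 9 genes in PIO and GM, but not in CTRL or PIO+GM, on the fewest counts. In PIO it went from 0.790, 1.48 and 1.38 to 0.257, 0.390 and 0.215 CPM, that is from 9, 14 and 19 to 4, 6 and 3 counts, at −2.03 ± 0.49 (adjusted p = 0.00524), and this call held without any single library (adjusted p 0.00589 to 0.0248). In GM it went from 1.35, 1.52 and 1.91 to 0.827, 0.540 and 0.601 CPM (−1.28 ± 0.44, adjusted p = 0.0388), a call that was lost without any one of the 6 libraries (0.0552 to 0.122). In CTRL the time points overlapped, with 1.05, 1.76 and 0.399 and 0.615, 0.264 and 0.960 CPM (−0.82 ± 0.47, adjusted p = 0.202), and in PIO+GM all 24 h libraries lay below those at 6 h (−0.94 ± 0.44, adjusted p = 0.102). Pmaip1 still passed in PIO without the 3 libraries with a GC trend, at −1.88 ± 0.57 (adjusted p = 0.028).

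Eda2r was lower at 24 h by a log2 value of more than 1 in all 4 treatments, and passed the threshold in those with pioglitazone. It went from 5.18, 9.21 and 5.28 to 1.74, 3.71 and 2.00 CPM in PIO (−1.39 ± 0.51, adjusted p = 0.0455) and from 11.2, 7.71 and 5.95 to 2.32, 5.83 and 1.96 in PIO+GM (−1.30 ± 0.50, adjusted p = 0.0485), without overlap. In GM, 8.75, 13.1 and 15.1 and 3.47, 7.63 and 4.61 CPM did not overlap either, at −1.23 ± 0.48 (adjusted p = 0.0682). In CTRL the 6 h libraries reached from 3.83 to 17.7 CPM and overlapped with those at 24 h (4.39, 6.41 and 3.84 CPM), at −1.04 ± 0.48 (adjusted p = 0.118). The call in PIO was lost without PIO at 6 h replicate 1 or 2 or PIO at 24 h replicate 1 or 3 (adjusted p 0.0542 to 0.194), that in PIO+GM without PIO+GM at 6 h replicate 1 or 2 or PIO+GM at 24 h replicate 1 or 3 (0.0899 to 0.169), and both without the 3 libraries with a GC trend (0.193 and 0.0612).

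Trp53inp1 and Bbc3 stood higher at 24 h. Trp53inp1 rose in CTRL from 96.1, 63.8 and 73.5 to 134, 110.5 and 147 CPM, without overlap (0.75 ± 0.26, adjusted p = 0.0407), a call lost without CTRL at 6 h replicate 2 or 3 or CTRL at 24 h replicate 1 or 3 (adjusted p 0.0888 to 0.166) and with DESeq2's size factors in edgeR (0.0539). In GM all 24 h libraries (118, 91.8 and 131 CPM) were above those at 6 h (90.5, 72.0 and 81.8 CPM), at 0.48 ± 0.26 (adjusted p = 0.192), and in PIO and PIO+GM the time points overlapped (0.06 ± 0.26, adjusted p = 0.898 and 0.22 ± 0.26, adjusted p = 0.542). Without the 3 libraries with a GC trend it passed the threshold in PIO+GM, at 1.04 ± 0.28 (adjusted p = 0.0117). Bbc3 went from 2.98, 2.65 and 3.19 to 4.66, 5.95 and 4.89 CPM in CTRL, with all libraries higher at 24 h, and its log2 changes of 0.81, 0.88, 0.90 and 0.81 in CTRL, GM, PIO and PIO+GM each missed the threshold (adjusted p 0.0807 to 0.113). Of the 12 libraries at 24 h, 8 lay above the highest of the 12 at 6 h (4.35 CPM), and no other member had any. With the GC trend removed, the changes of Bbc3 were 0.69, 0.68, 0.42 and 0.21, and without the 3 libraries those in PIO and PIO+GM were 0.73 and 0.32.

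Mdm2 and Ccng1 passed the threshold in none of the 4 treatments. Mdm2 ranged from 76.8 to 103 CPM over the 12 libraries at 6 h (median 86.6) and from 65.9 to 85.6 at 24 h (median 77.1), with log2 changes between −0.23 and −0.14 (adjusted p 0.115 to 0.386). Ccng1 ranged from 82.8 to 180 CPM at 6 h (median 104) and from 90.3 to 111 at 24 h (median 101), with values of 0.14 and 0.03 in CTRL and GM and of −0.38 and −0.36 in PIO and PIO+GM (adjusted p 0.109 to 0.92). After removal of the GC trend, the latter 2 were −0.12 and −0.06. Ccng1, without the 3 libraries with that trend, stood at −0.22 in PIO and, with the sign turned, at 0.17 in PIO+GM, and Mdm2 at −0.04 and −0.12.

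Some transcripts that mark cell types were also called between 6 and 24 h, and their part in the changes above was not tested. Of all genes, 14.8%, 12.5%, 13.2% and 17.6% were called higher in CTRL, GM, PIO and PIO+GM, and 13.2%, 11.7%, 15.8% and 17% lower. Of 6 Schwann cell markers, 1, 2, 1 and 1 were called lower in CTRL, GM, PIO and PIO+GM and 1, 1, 1 and 2 higher, with medians of −0.81, −0.91, −0.18 and −0.63, and their summed level ranged from 344.5 to 1487 CPM at 6 h and from 490 to 1329 at 24 h. Of 8 neuron markers, 1, 1, 0 and 2 were called lower and none higher, with medians of −0.73, −1.48, −0.33 and −1.60, and their summed level ranged from 71.8 to 401 CPM at 6 h and from 39.3 to 239 at 24 h. Of 11 macrophage markers, 1, 1, 3 and 4 were called higher and 0, 0, 1 and 1 lower (55.9 to 140.3 and 75.2 to 235 CPM), of 13 supporting cell markers 3, 2, 1 and 2 higher and 0 lower (2104 to 6337 and 3491 to 5310 CPM), and of 9 mesenchyme markers 3, 2, 2 and 4 higher and 0, 0, 1 and 1 lower (3153 to 5803 and 3748 to 7743 CPM). Of 15 hair cell markers, 1 was called higher in each treatment and 1, 2, 2 and 2 lower (566 to 994 and 656 to 1176 CPM). None of these markers was at 0 in any group.

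Other genes of the pathway were taken from lists of regulators of p53 and of further targets. Of 18 tested regulators, 0 passed the threshold in any drug comparison, and 1, Hipk2, was called lower in PIO vs CTRL at 6 h with the GC trend removed (−0.48 ± 0.11, adjusted p = 0.0376). Between 6 and 24 h, 5 fell and 1 rose in CTRL, 2 fell in GM, 4 fell and 1 rose in PIO, and 4 fell in PIO+GM. Of all genes, 13.2%, 11.7%, 15.8% and 17% fell in CTRL, GM, PIO and PIO+GM, and 14.8%, 12.5%, 13.2% and 17.6% rose. Without the 3 libraries with a GC trend, 3 fell and 1 rose in PIO, and the median in PIO+GM was −0.13. With the trend removed, 8 fell and 1 rose in CTRL, 3 fell in GM, 3 fell and 3 rose in PIO, and 5 fell and 2 rose in PIO+GM. The shares of all genes called in these 2 fits are not given here, so these counts cannot be set against them. Trp53 itself ranged from 34.7 to 44.5 CPM at 6 h and from 19.8 to 25.1 at 24 h in CTRL, and fell by 0.92 ± 0.27 (adjusted p = 0.0136) on the log2 scale. In the other treatments its values were −0.58 ± 0.26 (adjusted p = 0.115) in GM, −0.34 ± 0.26 (adjusted p = 0.352) in PIO and −0.43 ± 0.26 (adjusted p = 0.209) in PIO+GM, and without the 3 libraries it passed in PIO (−0.53 ± 0.18, adjusted p = 0.0494) and PIO+GM (−1.08 ± 0.22, adjusted p = 0.00213). Usp7, which encodes a deubiquitinase of MDM2 and p53, fell in all 4 treatments, with log2 changes of −0.34, −0.30, −0.27 and −0.35 in CTRL, GM, PIO and PIO+GM (adjusted p 0.00425 to 0.0243). Atm, the kinase that signals DNA breaks to p53, also fell in all 4, by values between −0.71 in PIO+GM and −0.42 in CTRL (adjusted p 0.000631 to 0.0232). Sirt1, a deacetylase of p53, fell in PIO and PIO+GM, with −0.79 and −0.74 (adjusted p 0.00387 and 0.0041). Atm and Sirt1 were still called without the 3 libraries in PIO and PIO+GM (adjusted p 0.00653 to 0.047), and Usp7 was called in neither (0.0645 and 0.0888). Hipk2, a kinase of p53, fell in CTRL (−0.52 ± 0.15, adjusted p = 0.0178), while Prkdc, the catalytic subunit of DNA-dependent protein kinase, rose there (0.60 ± 0.19, adjusted p = 0.0231), and Trp53bp1, a p53-binding protein of the DNA break response, rose in PIO (0.33 ± 0.10, adjusted p = 0.0244).

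Of 29 further p53 targets, 1 passed the threshold in a drug comparison: Rrm2b, a subunit of ribonucleotide reductase, was higher in PIO+GM vs GM at 6 h (0.84 ± 0.18, adjusted p = 0.0336). Its difference was 0.47 ± 0.10 (adjusted p = 0.0344) with the GC trend removed and 0.51 ± 0.20 (adjusted p = 0.732) without the 3 libraries with that trend. With the trend removed, Rrm2b was also called higher in PIO vs CTRL at 6 h (0.45 ± 0.10, adjusted p = 0.032). Between 6 and 24 h, members of this list passed the threshold in both directions. In CTRL, 8 fell and 2 rose, in GM 5 and 2, in PIO 6 and 5, and in PIO+GM 7 and 4, with medians of 0.04, 0.04, −0.13 and −0.13. Of all genes, 13.2%, 11.7%, 15.8% and 17% fell in these treatments and 14.8%, 12.5%, 13.2% and 17.6% rose. Without the 3 libraries with a GC trend, 7 fell and 3 rose in PIO, and the median in PIO+GM was −0.24. The share of all genes in that fit is not given here. Aen, an apoptosis-enhancing nuclease, fell in all 4 treatments, with log2 changes of −1.94, −1.74, −1.43 and −1.61 in CTRL, GM, PIO and PIO+GM, and so did Perp, a membrane protein of epithelial junctions, with −1.25, −1.30, −1.81 and −1.41 (adjusted p at most 0.00034 for both). Sfn, which encodes 14-3-3σ, and Tigar, a regulator of glycolysis, fell in all 4 as well, Sfn by values between −1.73 in CTRL and −1.05 in PIO+GM (adjusted p at most 0.00387) and Tigar by values between −0.81 in PIO+GM and −0.73 in CTRL (adjusted p at most 0.00604). Sesn1, a stress-induced inhibitor of mTORC1, rose in all 4, by 1.17, 1.20, 0.80 and 0.83 (adjusted p at most 0.00131), and so did Apaf1, the scaffold of the apoptosome, by 0.49, 0.47, 0.38 and 0.37 (adjusted p at most 0.0473). The antiproliferative gene Btg2 rose in PIO and PIO+GM (0.52 and 0.71), Psrc1, a spindle protein, rose in PIO (1.49 ± 0.43), and Xpc, a DNA repair factor, rose in PIO+GM (0.36 ± 0.12). Aen, Perp, Sfn, Tigar and Sesn1 were still called in PIO and PIO+GM without the 3 libraries with a GC trend, Apaf1 in neither, Btg2 in PIO+GM but not in PIO, Psrc1 in PIO, and Xpc in PIO but not in PIO+GM.

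Of 24 cell cycle genes, which Cdkn1a's product restrains through cyclin-dependent kinases, 0 passed in any drug comparison. Between 6 and 24 h, 2 rose in CTRL, 2 in GM, 11 in PIO and 4 in PIO+GM, while 0, 0, 1 and 3 fell, and the medians were 0.46, 0.77, 0.83 and 0.81. Of all genes, 14.8%, 12.5%, 13.2% and 17.6% rose and 13.2%, 11.7%, 15.8% and 17% fell. Calls of a rise in CTRL, GM and PIO+GM were thus no more frequent than among all genes. Without the 3 libraries with a GC trend, the number that rose was 4 in PIO, and the median in PIO+GM was 0.56. With the trend removed, 11 rose in PIO and 7 in PIO+GM. The shares of all genes in these 2 fits are not given here. The mitotic cyclin Ccnb2 rose in all 4 treatments, by 1.05, 1.18, 1.44 and 1.27 on the log2 scale (adjusted p 0.00925 to 0.0475). Of the mitotic kinases, Bub1 rose in CTRL (1.14 ± 0.40, adjusted p = 0.0411) and PIO (1.26 ± 0.40, adjusted p = 0.0237), and Aurka rose in GM (1.19 ± 0.35, adjusted p = 0.0195) and PIO+GM (1.06 ± 0.36, adjusted p = 0.0296). The cyclins Ccnb1 and Ccna2 rose in PIO (1.80 ± 0.40, adjusted p = 0.00321 and 1.49 ± 0.40, adjusted p = 0.00984), Ccna2 also in PIO+GM (1.27 ± 0.40, adjusted p = 0.0185). The replication genes went the other way where they passed: Pcna, the sliding clamp and a p53 target in its own right, fell in PIO and PIO+GM (−0.83 and −0.90 on the log2 scale), and Mcm4 and Tyms fell in PIO+GM (−0.45 and −0.52). Ccnb2, Ccnb1, Ccna2 and Pcna were still called in PIO without the 3 libraries, and Pcna in PIO+GM, while Bub1 in PIO and Ccnb2, Aurka, Ccna2, Mcm4 and Tyms in PIO+GM were not.

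Over the 24 libraries, the members did not vary as 1 group. Cdkn1a went most closely with Phlda3 (Pearson r of log2 CPM 0.83, Spearman 0.84) and Eda2r (0.79 and 0.73), and Bax with Phlda3 (0.77 and 0.64). Trp53inp1 ran against Cdkn1a (−0.77 and −0.74) and Phlda3 (−0.76 and −0.78), and Bbc3 against Mdm2 (−0.73 and −0.61). These points share their library, its depth and its GC trend, and fall into 2 time points, so the coefficients only describe them. Taken as deviations from the 8 group means, Cdkn1a and Phlda3 kept 0.55, and the closest pair was Ccng1 and Trp53inp1 (0.84). These are the 2 members with the lowest GC content (40.8% and 38.8%). Eda2r, at 40.9%, stood at −0.16 with Ccng1 and −0.39 with Trp53inp1, and a part of GC content in these coefficients was not tested. The tested genes most like the mean of the 9 standardised members over the 24 libraries were Gda (r = 0.92), Trpm6 (0.88), Layn (0.86), Arpc2 (0.85) and Cast (0.85), and those most like Cdkn1a were Spred2 (0.95), Spsb1 (0.95) and Adgrg1 (0.95).

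**Figure D5:**
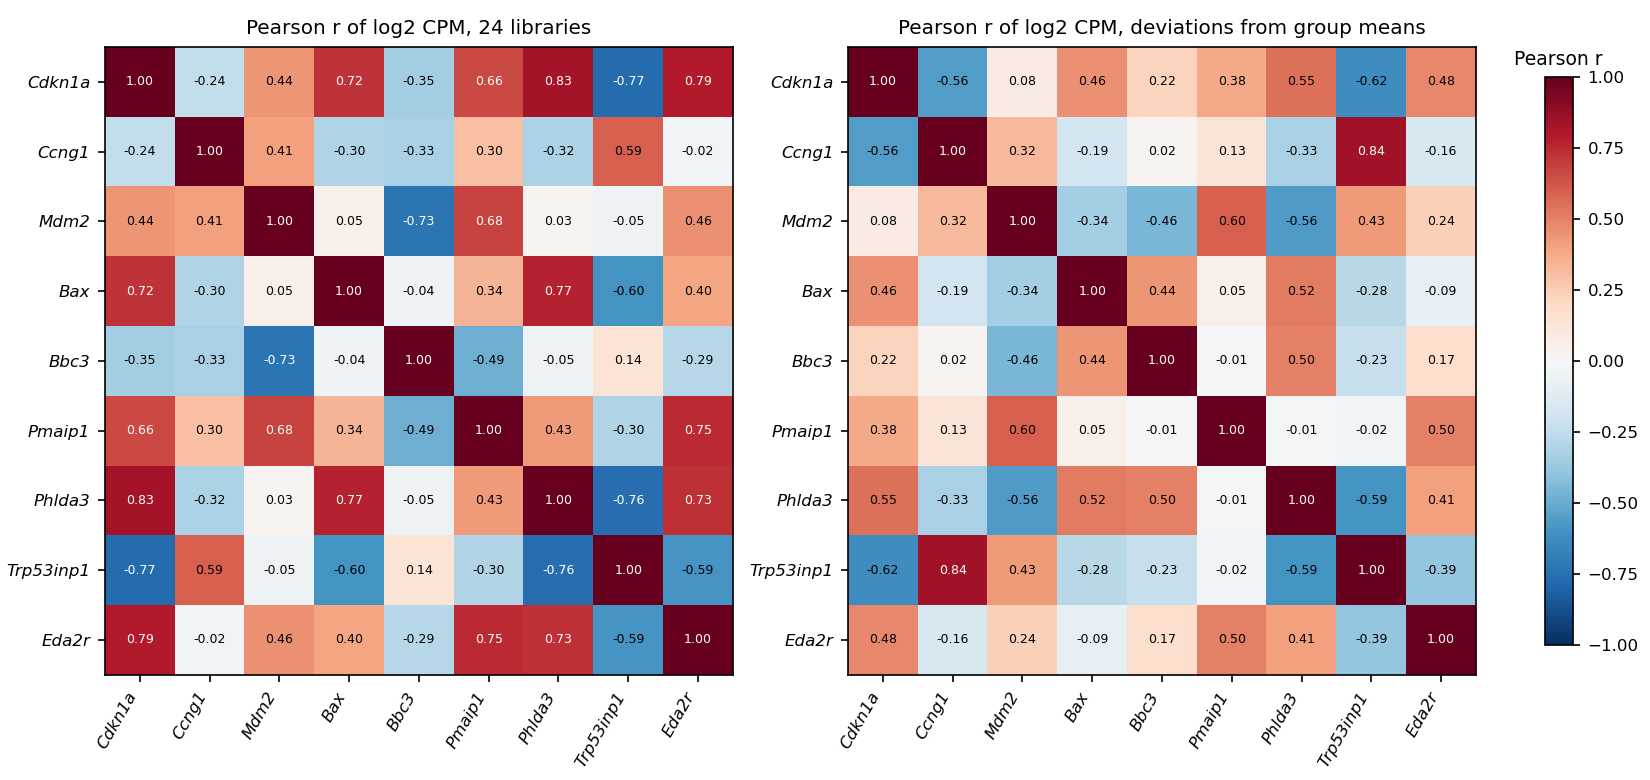
Pearson correlation of log2 CPM between the 9 genes over the 24 libraries (left) and after subtraction of each group's mean (right), from −1 (blue) to 1 (red). Cdkn1a, Phlda3, Eda2r, Bax and Pmaip1 are red among each other on the left, Trp53inp1 is blue against them, and Ccng1 and Trp53inp1 form the strongest pair on the right (0.84).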

How the data were processed

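RNA from OC explants was sequenced as stranded total RNA libraries. The authors mapped reads with STAR to mm10 (the assembly of GRCm38) and deposited raw counts per gene, made with QuasR as reads starting within any RefSeq exon, together with a gene length that served here for RPKM. Whether counting used the strand, and how reads with more than 1 match were handled, is not given in the sources used here. A symbol was found for 24374 Entrez identifiers and for 80 none. Counts were tested in R 4.3.3 with edgeR 4.0.16 (filterByExpr, TMM, quasi-likelihood test), in 1 model of 8 group means over all 24 libraries, with Benjamini-Hochberg adjustment over 16317 genes and a threshold of 0.05. Standard errors and 95% intervals of log2 fold changes come from the F statistic. log2 CPM used a prior count of 2. p-values measure the spread between pools of 6 OCs, which the labels call replicates, and counting floors cover counting error only. GC contents come from GENCODE transcripts. DESeq2 1.42.0, other scalings, filters and fits, and leaving out each library were alternatives, and the fit without the 3 libraries with a GC trend was added after the data were seen. The procedure was checked on simulated counts. Genes other than the 9 were named by lowest p within each list, up to 3 in each direction per comparison, or by correlation, and their values in other treatments were added where they also passed. The 9 genes and the lists were chosen with earlier results of these data known. Some of the Schwann cell markers are not reported here and were left out of that list.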

Additional observations from a re-analysis of the deposited data

How the results depend on the processing

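Counts of the 9 genes called kept within 1.5 times of the values above in most alternatives, and the drug comparisons other than PIO+GM vs GM at 6 h, as well as the 4 interactions, gave 0 in every one. In PIO+GM vs GM at 6 h, 1 gene was called with the likelihood ratio test and 2 with DESeq2, and 0 to 5 when single libraries were left out. Between 24 and 6 h, single libraries left out gave 1 to 5 calls in CTRL, 1 to 2 in GM, 1 to 3 in PIO and 0 to 2 in PIO+GM. In GM the count was 1 without a filter, 5 with the likelihood ratio test, 5 with DESeq2 and 5 with the GC trend removed. In PIO+GM it was 1 without a filter, 4 with the GC trend removed and 0 with the 6 libraries compared alone. The shares of all genes called over time in these alternatives, and with single libraries left out, are not given here. Whether the members moved more than all genes can therefore not be read from these counts. The change of Ccng1 in PIO+GM vs GM at 6 h reversed to −0.065 without the 3 libraries with a GC trend. Per length, 7 of the 9 genes took another rank of level than by CPM, and a prior count of 0.5 moved no mean log2 CPM over the 24 libraries by more than the spread between replicates, although the mean of Pmaip1 in PIO at 24 h went from −1.19 to −1.65.

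With the replicate number as a block, 2 of the 9 genes (Bax and Phlda3) were called in PIO+GM vs GM at 6 h, among 1990 of all 16317 genes, and 5 in GM at 24 against 6 h, and no other count moved by over 1.5 times. With the block and the GC trend removed together, the counts were 0 in PIO+GM vs GM at 6 h and 6, 5 and 5 in GM, PIO and PIO+GM at 24 against 6 h. The shares of all genes called over time with the block are not given here, so these counts cannot be set against them. The labels give the numbers no shared litter or day. Same-numbered libraries correlated in their deviations from the group means by 0.113 on average at 6 h (lowest −0.305, 9 of 18 pairs over 0.1) and by 0.38 at 24 h (lowest −0.025, 15 of 18 over 0.1), against −0.055 and −0.182 for libraries with other numbers, and 8 of 12 libraries at each time correlated best with their own number. This is a hint of pairing from the data, but since not every pair was over 0.1 and no label ties the numbers, the block stayed an alternative. Among all genes, PIO+GM vs GM at 6 h gave 216 calls without and 1990 with the block, 670 with the likelihood ratio test and 1330 with DESeq2. With these tools in turn, the all-gene counts were 24 and 15 against 2 in GM vs CTRL at 24 h, 56 and 35 against 12 in PIO+GM vs PIO at 24 h, 211 and 383 against 55 in PIO vs CTRL at 6 h, 148 and 162 against 25 at 24 h, and 72 and 112 against 18 in PIO+GM vs GM at 24 h. Interactions with time were not fitted on fewer groups. Depth limits Pmaip1 most, with 3 to 28 counts per library.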
